A study of Mus musculus with 18 samples.

Results

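Transcribed DNaseI hypersensitive sites (DHSs) far from gene starts often carry neighbouring numbers, and here the runs of such neighbours were examined as units. A run was defined as 5 or more consecutive DHS numbers, all listed with a baseMean of 1 or more. The baseMean is the authors' mean normalized count over all libraries. Members were the regions of a run with a baseMean from 1 to below 100. They were thus chosen by their baseMean and their number, so that both are given as a description with no test. Of 70586 DHSs listed, 9309 were members, and they lay in 1338 runs. The runs held 10031 regions in all, since 722 regions with a baseMean of 100 or more stood among the members.

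Nascent RNA was measured by TT-seq in E14 murine embryonic stem (ES) cells that express osTIR1, the plant receptor through which auxin marks a tagged protein for degradation. In 2 clones, SPT16_AID_V5_Clone1 and SPT16_AID_V5_Clone2, SPT16 also carried a C-terminal mini-AID tag with a triple V5 tag, while untagged cells had osTIR1 alone. All cells were grown with LIF, a GSK inhibitor and a MEK inhibitor, and were treated for 24 h with ethanol (EtOH, 0.1%) or with 3-IAA, given as 500 nM in the labels and in µM in the study's methods. Each of the 6 conditions had 3 libraries, 18 in all, and RNA was labelled with 4-thiouridine for 5 min before extraction. The 3 libraries of a condition are described by the study as technical repeats, and each clone is 1 line.

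SPT16 is a subunit of FACT, a histone chaperone that takes apart and rebuilds nucleosomes as RNA polymerase II passes. A DHS is a stretch of open chromatin, and outside promoters such sites include enhancers, insulators and silencers. Active enhancers are themselves transcribed, often from both strands, into short-lived enhancer RNAs that steady-state RNA-seq largely misses and that a short pulse of 4-thiouridine captures. Transcription can also pass through a DHS that does not start it, for example downstream of a gene's end or within a longer non-coding transcript.

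The table used for these regions holds a single pooled level per DHS. Its remaining columns hold the authors' own comparison of SPT16-depleted with control libraries and were not used, so that no difference between conditions is given, and a spread between libraries cannot be stated. The baseMean mixes depleted and control cells, and fewer transcribing cells and less RNA per cell cannot be told apart in it. Positions and widths of the regions were not used here. A level is therefore a read count per region and not a density, a wider DHS can collect more reads, and no sequence is printed. The identifiers are described by the authors as arbitrarily assigned, and whether successive numbers are neighbours on a chromosome could be examined only through the likeness of their levels.

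Depth could be read from the lowest values. Regions read once, by a single library, share a value set by the scaling of that library, and 18 such values stood out, from 0.0257 to 0.0972, matching the number of libraries. Normalization thus differed by 3.78 times between the shallowest and the deepest library. Apart from this match, which libraries entered the mean is not stated. The limits that picked the 18 values were set after they had been seen, which weakens the match. The mean of the 18 values, 0.0583, sets the counting error of a region with equal levels in all libraries, with a standard error of 0.241 at a baseMean of 1, of 0.764 at 10 and of 2.41 at 100. These errors cover read counting only. In the deposited gene table all 7 markers of ES cells were present, from a baseMean of 5985 for Sox2 to 64437 for Esrrb, both pluripotency transcription factors. The 4 fibroblast markers ranged from 2.03 for Col3a1 to 25.7 for Thy1.

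Runs were the least frequent kind of stretch, and most were short. The 26818 regions with a baseMean of 1 or more fell into 5474 stretches of 1 region, 4354 stretches of 2 to 4 regions and the 1338 runs. Of the runs, 415 (31.0%) had exactly 5 regions, the median length was 6 with quartiles of 5 and 8, and 245 (18.3%) had 10 or more. These longer runs held 3188 regions, or 31.8% of all regions in runs. Only 15 runs reached 20 regions, and the longest had 29. Members made up 36.5% of the 25513 DHSs with a baseMean from 1 to below 100, and 13.2% of all DHSs listed. Of the 1305 DHSs at 100 or more, 722 (55.3%) lay in runs.

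**Figure D1:**
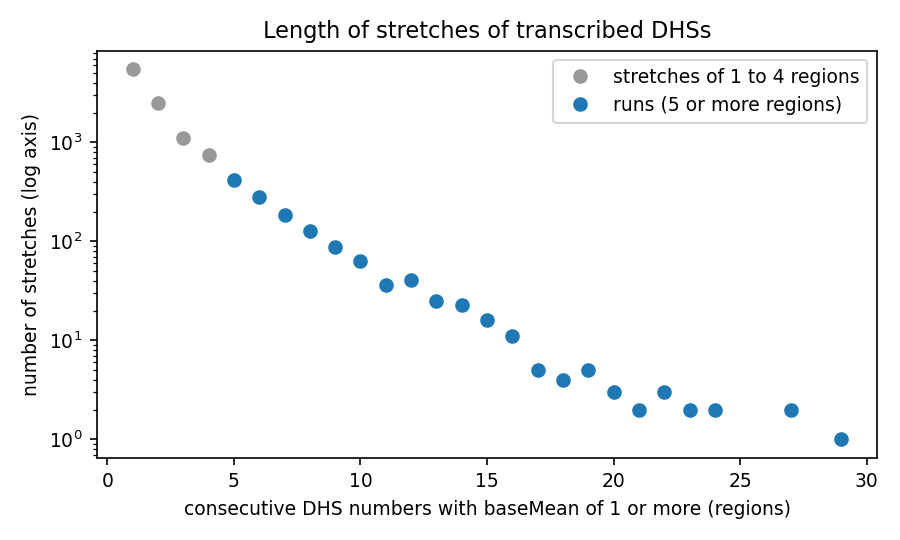
Number of stretches (log axis) against the number of consecutive DHS numbers with a baseMean of 1 or more. Grey points are the 5474 single regions and the stretches of 2 to 4 regions, and blue points are the 1338 runs, which thin out from 415 runs of 5 regions to 1 run of 29.

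The runs held 37.4% of the DHSs at 1 or more, 14.2% of all listed DHSs and 52.1% of the summed baseMean of the table (364219 of 699046 normalized reads per library). The rule leaves out every DHS below 1, so that a larger share of the sum than of the listed DHSs follows from it. Members alone held 20.1% of the sum, and within the runs 61.5% of the sum came from the regions at 100 or more. Still, 982 runs (73.4%) had no region at 100 or more and consisted of members throughout. In 211 runs (15.8%) every region was below 10, and in 14 runs every region was below 3. At the other end, 113 runs had no region below 10, and 2 had none below 100.

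A few runs dominated the sum. When runs were ranked by their summed baseMean, the top 10 made up 18.4% of the total over runs, and 103 of the 1338 runs sufficed for 50% of it. The sum over a run ranged from 7.49 to 11871 with a median of 90.9 and quartiles of 42.7 and 256. The median level within a run ranged from 1.20 to 1718, with a median over runs of 7.30.

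Members had higher levels than DHSs of the same range outside the runs. Their median baseMean was 6.90, with quartiles of 2.98 and 18.5, against 2.34 (1.40 and 5.77) for 5331 single regions and 4.23 (1.96 and 11.4) for 10873 regions in stretches of 2 to 4. Of the members 14.0% were between 1 and 2, close to the limit, against 43.3% of the single regions. A baseMean of 10 or more was reached by 39.9% of members, 15.9% of single regions and 27.6% of regions in short stretches. The rule favors this difference, since a region near the limit is less likely to have 4 neighbours above it, and no test was made.

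Longer runs also stood higher. From runs of 5 regions to runs of 16 to 29, the median baseMean of members was 5.66, 6.07 (6 to 7 regions), 7.31 (8 to 10), 8.25 (11 to 15) and 10.0. The rule favors this rise, since a stretch of higher levels is less often ended by a region below 1, and no test was made. The highest region of a run rose more steeply with length, from a median of 24.6 in runs of 5 to 147 in runs of 16 to 29, as a maximum over more regions must tend to do. The lowest region hardly moved, with medians between 1.74 and 2.01. A region at 100 or more was present in 16.1% of the runs of 5 and in 60% of the 40 longest, which have more regions that could reach it. Counted by region, 1970 of the 2075 in runs of 5 and 706 of the 773 in the longest class were below 100.

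**Figure D2:**
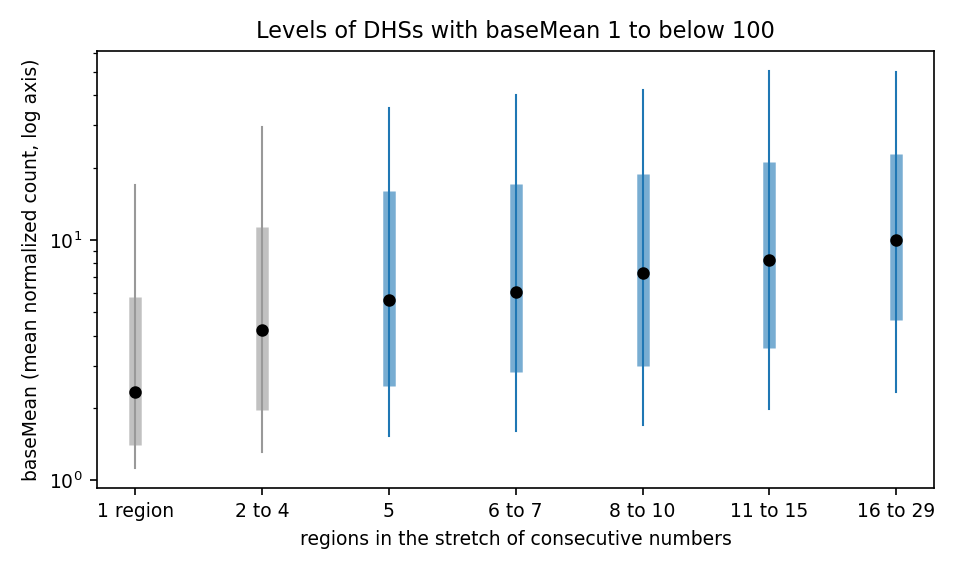
The baseMean (mean normalized count, log axis) of DHSs from 1 to below 100, by the number of regions in their stretch. Black points are medians, thick bars the quartiles and thin lines the 10th and 90th percentiles; medians climb from 2.34 for single regions to 10.0 for runs of 16 to 29, while the bars of neighbouring classes overlap.

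The limits cut through a continuum. DHS16057 (1.000) and DHS121314 (1.001) were the members just inside the lower limit, and DHS67193 (0.9997) and DHS125361 (0.998) were regions next to a run that fell just outside. At the upper limit DHS179175 (99.8) and DHS20800 (99.8) were members, while DHS121819 (100.3) and DHS178590 (100.6) were not. Each pair differed by far less than its counting error of 0.241 or 2.41.

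Neighbours within a run had similar but seldom equal levels. Over 8693 pairs of consecutive regions the higher level was a median of 1.83 times the lower (quartiles 1.29 and 3.41). In 54.9% of the pairs the levels were within 2-fold, and in 7.64% they were 10-fold or more apart. The difference was within 2 counting standard errors for 25.7% of the pairs and larger for the other 74.3%. Spread between libraries is not part of that error, so whether these neighbours differ beyond such a spread cannot be stated. Widths may differ between neighbours, and their part in these differences was not tested.

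Likeness faded with distance in number. Spearman's rho of the levels was 0.606 for consecutive regions of a run, 0.457 for regions 2 numbers apart (7355 pairs), 0.332 at 3 and 0.207 at 5 (3341 pairs). Over all DHSs at 1 or more the values were 0.596 (15652 pairs), 0.434, 0.324 and 0.213 in the same order, 0.064 at 10 numbers apart and 0.006 at 50. All pairs come from the same 18 libraries, and the coefficients are given as a description. Of the variance of log10 baseMean over the 10031 regions, 35.1% lay between runs, with a standard deviation of 0.37 between and 0.50 within runs. With few regions per run, unrelated levels would also put part of the variance between runs, and that part was not computed.

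**Figure D3:**
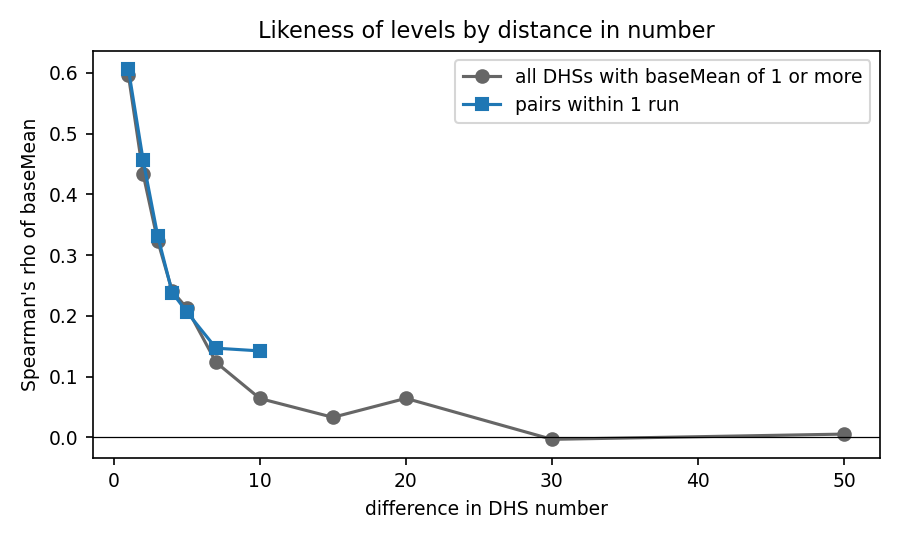
Spearman's rho of baseMean between DHSs a given difference in number apart, for all DHSs with a baseMean of 1 or more (grey circles) and for pairs within 1 run (blue squares, left out at the larger differences with few pairs). Both start near 0.60 for consecutive numbers and fall to near 0.2 at a difference of 5.

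The highest region of a run is picked as its maximum, so by construction it holds more than an equal share of the sum. The highest region held a median of 38.9% of the run's summed baseMean (quartiles 30.3% and 51.3%), and more than 50% of it in 359 runs (26.8%). The highest level was a median of 15.0 times the lowest (quartiles 7.29 and 38.4), at least 10 times in 858 runs (64.1%) and at least 100 times in 129. In 89 runs (6.65%) it was less than 3 times. The median ratio rose with length, from 8.86 in runs of 5 regions to 65.4 in runs of 16 to 29. Extremes over more regions tend to lie further apart, and no test was made. Runs were also lined up on their highest region, below which all others lie by construction. The highest region had a median of 39.9, against a median over runs of 7.30 for the median level within a run. With the highest set to 100%, the region numbered 1 before it had a median of 34.6% and the region 1 after it 28.6%, and at 4 regions away the medians were 14.0% and 13.5%.

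Levels were not symmetrical along the numbering. The highest region was past the middle of 896 runs (67.0%), before the middle of 347 (25.9%) and at the middle of the remaining 95. It was the last region of 463 runs (34.6%) and the first of 114 (8.52%). Conversely, the lowest region was the first in 389 runs and the last in 195. Each run was split into 5 sections in order of number, which held unlike numbers of regions unless the length was a multiple of 5. The share of runs with their highest region in a section climbed from 10.2% to 11.4%, 16.3%, 22.0% and 40.1%. The rule treats both directions alike, so it does not favor either.

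The last region had a higher level than the first in 899 runs (67.2%), with medians of 11.1 and 4.59. The log2 ratio of last to first had a median of 1.22 over runs, with quartiles of -0.61 and 3.03. In the other 439 runs the first region was the higher one. The 2 ends differed by more than 2 counting standard errors in 1164 runs, and the last was higher in 805 of these (69.2%) and the first in 359. Levels climbed at every step in 83 runs and fell at every step in 5. Runs with and without a region at 100 or more had nearly equal shares with a higher last region, 67.4% and 67.1%. Other measures differed more between these 2 kinds. The median log2 ratio of last to first was 1.90 and 1.13, and the highest region was past the middle in 73.0% and 64.8%.

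The direction held along the whole numbering. In each of 10 windows of 20000 numbers, which held 114 to 155 runs each, the last region was higher in the majority of runs, from 58.1% to 72.0%. The median log2 ratio of last to first in a window was between 0.82 and 1.66. Among all 4976 listed stretches of 5 or more numbers, whatever their level, the last region was higher in 50.9%, the first in 2205 of the stretches and neither in 237, with medians of 0.516 for the last and 0.496 for the first. The authors counted reads by strand, and the strand given to each DHS is not stated in the sources used here. Its part in the direction was not tested.

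**Figure D4:**
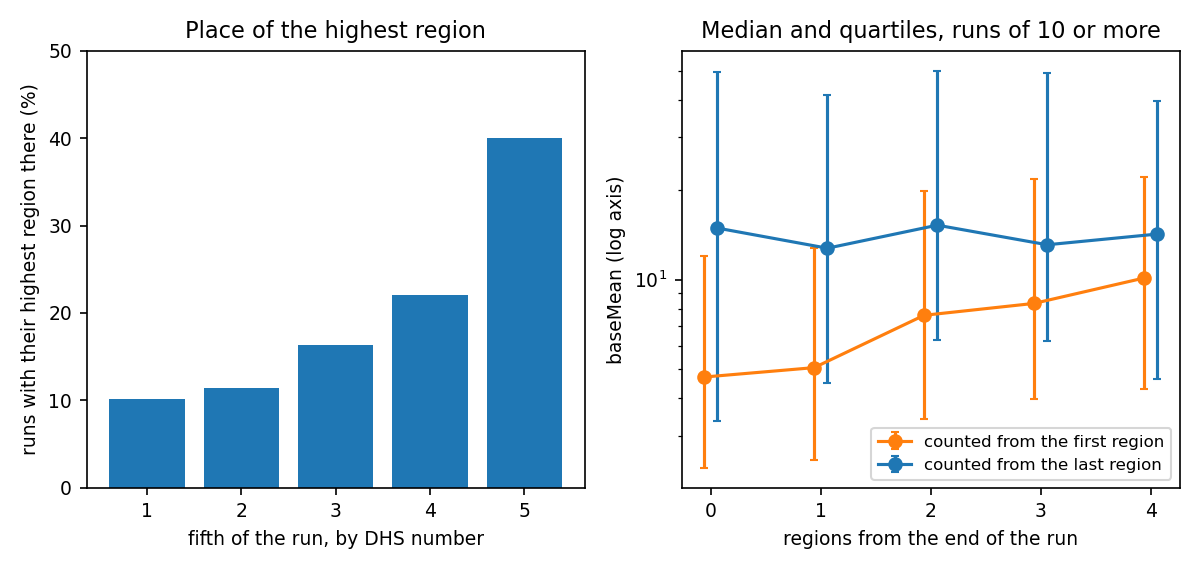
Left, percent of the 1338 runs whose highest region lies in each of 5 sections of the run, in order of DHS number. The percent climbs from 10.2% to 40.1%. Sections hold unlike numbers of regions unless the length is a multiple of 5. Right, median baseMean with quartiles as bars (log axis) over the 245 runs of 10 or more regions, counted from the first region (orange, median 4.71 at the end itself) and from the last region (blue, median 14.9); the quartiles overlap.

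What lay beyond the ends of a run differed from what lay beyond shorter stretches. The listed numbers run from 1 to 199717, and 129131 of them are not listed in the table used here. The study's methods state that sites close to annotated coding gene starts were removed from the DHSs, and which unlisted numbers that applies to was not analysed. Of the borders of runs, 1695 (63.3%) were at an unlisted number and 981 at a listed DHS below 1, against 36.6% for single regions and 55.3% for stretches of 2 to 4. Unlisted numbers stood on both sides of 568 runs (42.5%) and of 19.4% of single regions. A listed DHS below 1 stood on both sides of 211 runs (15.8%) and of 46.3% of single regions. The rule favors these differences, since a stretch of higher levels is less often ended by a listed DHS below 1. No test was made.

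Ends next to an unlisted number had higher levels than ends next to a listed DHS below 1. The latter ends were picked by a low neighbour, and levels of consecutive regions were alike, so the rule favors this difference. The last region had a median of 18.4 (quartiles 5.40 and 55.2) in the 881 runs followed by an unlisted number and of 4.70 (2.15 and 14.8) in the 457 runs followed by a DHS below 1. For the first region the medians were 7.04 (2.90 and 21.5) in 814 runs and 2.69 (1.54 and 5.71) in 524 runs. A last region before an unlisted number was the highest of its run in 41.1%, and a first region after a DHS below 1 in 5.34%. Among these 4 kinds of ends, only the last region before an unlisted number was as a rule above the interior of its own run, by a median of 1.07 on the log2 scale.

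The kind of border and the direction were both visible at once. With a DHS below 1 on both sides, the last region was higher in 61.6% of 211 runs, and with an unlisted number on both sides in 68.1% of 568 runs. In the 313 runs with a DHS below 1 before them and an unlisted number after, it was higher in 84.7%, and the median log2 ratio of last to first was 2.37. In the 246 runs of the opposite kind it was higher in 47.6% (median log2 ratio -0.18). A border at a DHS below 1 favors a low end beside it, so runs with unlike borders are tilted by that choice.

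The DHSs below 1 that bordered runs were seldom without reads. Their median baseMean was 0.468 over 981 borders, and 47.2% were between 0.5 and 1, against 15.5% of all 43768 DHSs below 1. At a baseMean of 0 were 5.0% of these borders and 28.9% of all DHSs below 1. These borders were picked by a neighbour at 1 or more, and levels of consecutive regions were alike, so the rule favors this difference. Levels at the borders of shorter stretches were not compared. Beyond such a border region, the next number was listed in 860 cases and had again a baseMean of 1 or more in 345 (40.1%), against 38.0% of all listed DHSs. In 28 places a single listed region below 1 was all that separated 2 runs, and in 13 a single unlisted number.

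The 3 longest runs differed in shape. DHS58899 to DHS58927, with 29 regions, climbed from 1.95 ± 0.337 (counting standard error, as for the values below) at its first region to 108.8 ± 2.52 at DHS58922, the 24th. The regions after DHS58922 stayed between 35.2 and 81.8. The climb was uneven, with the lowest level of 1.58 ± 0.303 at DHS58901, the third region, and a single high point of 24.0 ± 1.18 at DHS58910, between neighbours at 5.72 and 4.61. A single DHS below 1, DHS58898 with 0.795 ± 0.215, separated it from another run that started at DHS58890. The 2 runs and the region between them spanned 38 consecutive numbers.

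DHS180422 to DHS180448, with 27 regions, had separate high points over a raised floor. Its 7 regions at 100 or more were led by DHS180430 with 523.2 ± 5.52, whose neighbours DHS180429 and DHS180431 had 42.3 ± 1.57 and 35.9 ± 1.45. DHS180444, at 20.7 ± 1.10, stood between DHS180443 with 178.7 ± 3.23 and DHS180445 with 243.4 ± 3.77. Every region but the first, at 1.62 ± 0.307, was at 13.2 or more.

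DHS196311 to DHS196337, also with 27 regions, rose and fell. It had 3.57 ± 0.456 at its first and 3.58 ± 0.457 at its last region, and reached 160.0 ± 3.05 at DHS196330, the 20th. DHS196313 and DHS196316, at 29.6 ± 1.31 and 29.7 ± 1.31, stood between regions at 3.42 to 6.50.

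**Figure D5:**
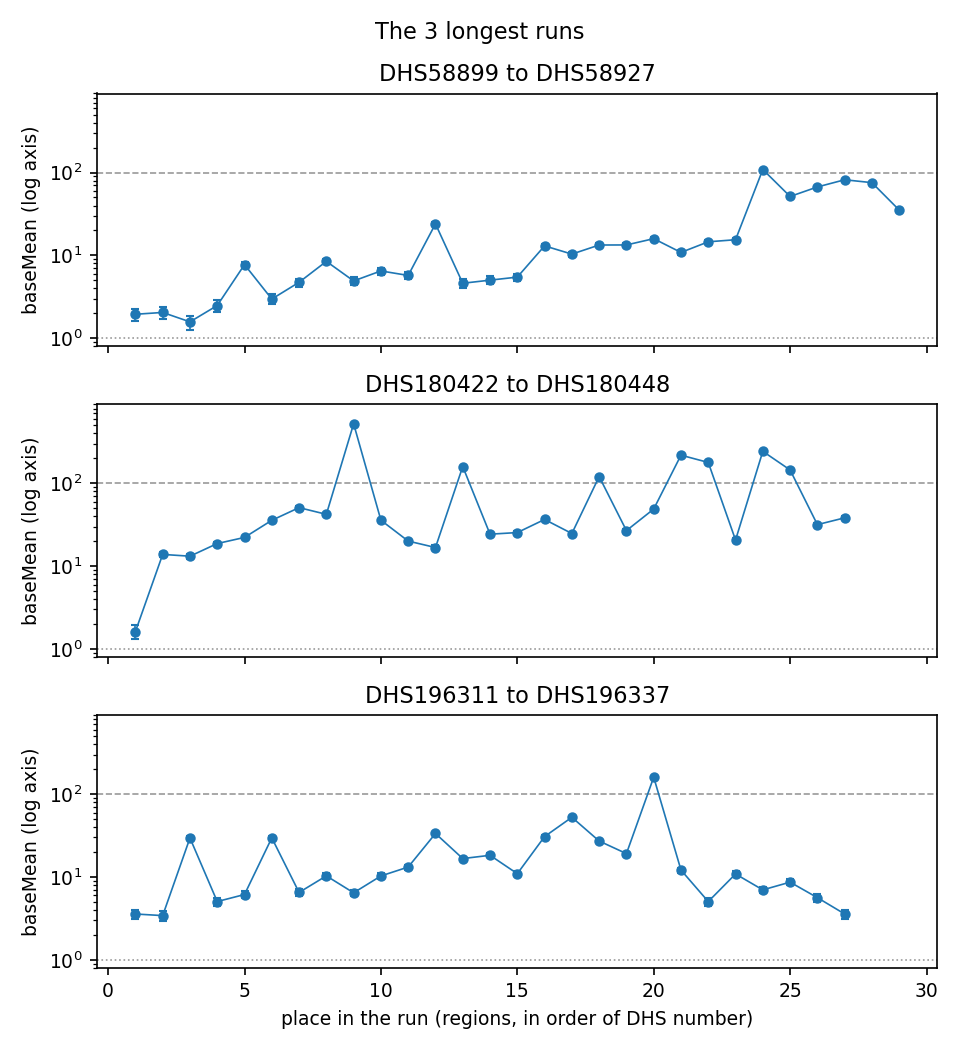
The baseMean (log axis) of each region in the 3 longest runs, in order of DHS number, with counting standard errors as bars (smaller than most points). Dashed and dotted lines mark the limits of 100 and 1; the top run climbs to 108.8 at its 24th region, the middle run has 7 points above 100 and the bottom run peaks at 160.0.

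The 3 runs with the highest medians had 5 or 6 regions, against a median length of 6 over all runs. DHS56763 to DHS56768 was 1 of the 2 runs with no region below 100 and therefore held no member, and its 6 levels lay between 511.6 ± 5.46 (DHS56767) and 3724 ± 14.7 (DHS56765). DHS43991 to DHS43995 climbed from 924.6 ± 7.34 to 5129 ± 17.3 at DHS43994, the highest of any run, and then dropped to 55.0 ± 1.79 at DHS43995, its sole member. In DHS59246 to DHS59251, members at 44.0 ± 1.60 and 85.4 ± 2.23 preceded 4 regions from 578.7 to 879.9, and the DHS after the highest had only 0.633 ± 0.192.

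The runs with the lowest medians were near the limit throughout except for a region or so. In DHS156410 to DHS156414 the first and second regions had 5.04 ± 0.542 and 9.04 ± 0.726, and the other 3 had 1.13 to 1.20. DHS138233 to DHS138237 had 3 regions between 1.12 and 1.22 before 2.85 ± 0.408 and 4.00 ± 0.483. In DHS34477 to DHS34482, only DHS34481 with 4.44 ± 0.509 was above 1.37. The lowest region of the 3 runs, DHS138235 with 1.12 ± 0.256, was nearer to the limit of 1 than its counting standard error.

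In the runs with the largest ratio of highest to lowest level, blocks of high regions ended abruptly. DHS161264 to DHS161273 had 7 regions from 158.6 ± 3.04 to 2890 ± 13.0, of which DHS161270 had 2009 ± 10.8. The next region, DHS161271, had 5.65 ± 0.574, and the last had 1.21 ± 0.266, which made the ratio 2389. DHS137419 to DHS137437 began with 1.19 ± 0.264 and 1.24 ± 0.269, went on with 15 regions from 223.1 to 2748 ± 12.7, and ended with 1.26 ± 0.271 and 2.07 ± 0.347. The step from DHS137435 to DHS137436 was from 1370 ± 8.94 to 1.26. In DHS79233 to DHS79241 the highest region, DHS79236 with 3523 ± 14.3, held 75.8% of the run's sum and was followed by DHS79237 with 15.3 ± 0.945.

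Flat runs were rarer. Among runs of 8 or more regions the smallest ratio was 1.66, in DHS194675 to DHS194682 with levels from 12.2 ± 0.845 to 20.3 ± 1.09. Its last 4 regions (18.3 to 20.3) stood above its first 4 (12.2 to 15.2). DHS175251 to DHS175258 likewise had a ratio of 1.66, with 8 levels between 5.60 ± 0.571 and 9.31 ± 0.737. In DHS65606 to DHS65613 all 8 regions lay between 1.09 ± 0.252 and 2.03 ± 0.344, near the limit throughout.

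Runs with the most regions at 100 or more included, beside DHS137419 to DHS137437 with 15 of 19, DHS17513 to DHS17523 with 10 of 11 and DHS69357 to DHS69371 with 9 of 15. In DHS17513 to DHS17523 the sole member, DHS17516 with 60.1 ± 1.87, lay between 197.3 ± 3.39 and 216.1 ± 3.55. DHS69357 to DHS69371 climbed from 7.17 ± 0.647 through members at 9.99, 51.8 and 69.7 to 2716 ± 12.6 at DHS69368, and fell from 888.6 ± 7.20 to 2.43 ± 0.376 between DHS69369 and DHS69370.

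Runs were spread over the numbering. In the 10 windows of 20000 numbers, 11.3% to 16.6% of the listed DHSs lay in runs.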

How the data were processed

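TT-seq libraries of 6 conditions, 3 each, were processed by the authors. Per the methods, reads were trimmed (Trim Galore), mapped uniquely to mm10 (STAR) and counted by strand (featureCounts, while the submitters' processing notes name HTSeq) on DHSs from which sites near coding gene starts had been removed. The deposited baseMean is a signal per region, namely the authors' DESeq2 mean of size-factor-normalized counts. The other 4 of the 5 value columns hold the authors' log2 fold changes with standard errors, p-values and adjusted p-values, and were not used. Tables of eRNAs and PROMPTs were not used here, and the gene table served only for the baseMean of marker genes.

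DHSs were sorted by number, and maximal runs of at least 5 consecutive numbers with a baseMean of at least 1 were taken. The members, lists and limits were chosen with earlier results of these data known. Single-read values were those below 0.13 shared by at least 100 regions and not the sum of a pair of smaller ones, limits set after the values had been seen. The counting standard error is the square root of baseMean times their mean. Named runs were the 3 longest, the 3 with the highest and lowest median, the 3 with the largest and, at 8 or more regions, the smallest ratio of highest to lowest, and the 3 with the most regions at 100 or more. The direction along the numbering and the windows were examined after the values had been seen. Alternatives changed the limits of baseMean, the least run length and the handling of gaps in the numbering. The run search was tested on simulated data. Tools were matplotlib 3.10.9, scipy 1.17.1, pandas 2.3.3, numpy 2.4.6 and Python 3.11.15.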

Additional observations from a re-analysis of the deposited data

How the results depend on the processing

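No paired analysis was possible because the table holds a pooled level and no values of single libraries, and for the same reason no library could be left out. With a lower limit of 0.5, 1840 runs held 13467 members, the median member had a baseMean of 4.51, the median ratio of highest to lowest was 18.2, 41.7% of the regions in range lay in runs, 65.5% of borders were unlisted and the last region was higher in 62.3% of runs. With a limit of 2, 932 runs held 6164 members (32.2% of the regions in range) with a median of 10.6, a ratio of 12.5, 59.7% of borders unlisted and a rho of 0.584 between consecutive regions. With a limit of 5, 513 runs held 3072 members (25.7%) with a median of 18.5, a ratio of 9.58, 54.6% of borders unlisted, the highest region at an end in 46.2%, a rho of 0.575 and a higher last region in 70.8%. Taking runs of 4 or more gave 2084 runs and 12158 members with a median length of 5, 47.7% of the regions in range, a median of 6.52, a ratio of 10.6 and the highest region at an end in 49.2%. Taking 8 or more gave 459 runs with a median length of 10, 4572 members (17.9%), a median of 8.14, a ratio of 30.6, the highest at an end in 29.6% and a higher last region in 64.3%. Allowing 1 unlisted number inside a run gave 1393 runs and 9879 members (38.7%). Without the upper limit the median was 7.98 and the share 37.4%. Each setting changes which regions are taken. By definition a higher lower limit leaves out the lowest members, and ends are a smaller share of a longer run. How much of the shifts follows from this was not tested. The last region was higher than the first in the majority of runs under all 6 settings tried for it.

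The table gives no spread between libraries, and the counting error takes the libraries as equal in level. A region near 1 rests on about 18 normalized reads over all libraries, and at that level differences within a run were not detectable unless they exceeded about 2 counting standard errors.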
